A study of Mus musculus with 18 samples.

Results

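The genes described here are 37 genes of T cells and natural killer (NK) cells, chosen by symbol for what their products are known to do. The choice was made with earlier results of these data known. All 37 were found among the 54532 gene identifiers of the deposited tables. They fall into 9 genes of the T cell receptor and its first signalling steps (Cd3e, Cd3d, Cd3g, Cd247, Trac, Trbc1, Trbc2, Lck, Zap70), 3 surface proteins of T cells in general (Cd2, Cd5, Cd6), 4 genes high in regulatory T cells (Foxp3, Il2ra, Ctla4, Tigit), 7 genes of helper T cells and their transcription factors (Cd4, Cd28, Icos, Il7r, Tcf7, Gata3, Tbx21), 2 inhibitory receptors (Pdcd1, Lag3) and 12 genes of cytotoxic T cells and NK cells (Cd8a, Cd8b1, Prf1, Gzma, Gzmb, Nkg7, Ncr1, Klrb1c, Klrk1, Klrd1, Klrg1, Il2rb). Several genes could stand in more than 1 class. Il2ra, Ctla4, Tigit and Icos are also induced on other activated T cells, and Tcf7, Zap70, Gata3, Il7r and Il2rb are made by cells outside the T lineage too.

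A T cell recognises antigen through a receptor whose constant regions are encoded by Trac, Trbc1 and Trbc2, and which signals through the CD3 chains and the kinases Lck and Zap70. Regulatory T cells, which depend on the transcription factor Foxp3, restrain inflammation in the colon, helper T cells steer it through cytokines, and CD8 T cells and NK cells kill target cells with perforin and granzymes. The study removed members of the IL-36 family, cytokines that act through a shared receptor on epithelial, myeloid and T cells: Il1f9 encodes the agonist IL-36 gamma and Il1f5 the antagonist of the receptor.

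The 18 RNA-seq libraries came from C57BL/6 mice of 2 lines, each with wild-type (+/+) and knockout (-/-) animals, in 2 settings. In the colitis setting the mice drank 2.5% dextran sulfate sodium (DSS) for 5 days and plain water for 2 days, and a piece of distal colon was taken from 3 Il1f5+/+, 3 Il1f5-/-, 2 Il1f9+/+ and 2 Il1f9-/- mice. In the tumour setting colorectal tumours were taken after treatment with azoxymethane and DSS (AOM/DSS) from 2 mice of each of the same 4 genotypes. The mice's age and how either allele was made are not given in the sources used here, and the tumours of the 2 lines were deposited in separate tables.

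Depth was even, at 16621611 to 23776174 counts per library, so that 3 counts, taken as the floor of detection, correspond to between 0.126 and 0.18 CPM (counts scaled to the same library total). The genotype labels were checked on the targeted genes. Il1f9 lay at 0.51 and 0.049 CPM in the colitis Il1f9-/- libraries against 11.8 and 4.83 in their wild type, and at 0.11 and 0 against 87.1 and 38.4 in tumours. Il1f5 was counted at 0 in every Il1f5+/+ library and every library of the Il1f9 line, and had reads in the libraries labelled Il1f5-/- alone, at 2.06, 2.20 and 2.54 CPM in colitis and 9.80 and 5.68 CPM in tumours. This goes against the label, and those libraries are therefore called by their label throughout. Tumour Il1f9-/- replicate 2 stood apart from replicate 1: the chi-square per gene between them was 95.5, against 6.19 to 39.1 for the other pairs within a group, and its smooth muscle markers summed to 492 CPM against 25.3. Colon epithelial markers were abundant in every library, with a sum of 8875 to 27610 CPM over 10 genes.

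On the authors' FPKM scale, which divides by gene length and so allows genes to be compared, the median over the 10 colitis libraries was highest for Gzmb (granzyme B, 6.56 FPKM), followed by Trbc2 (5.78), Gzma (granzyme A, 5.10), Trbc1 (3.67), Lck (3.42) and Nkg7 (a granule protein of killer cells, 3.41). The ranges of these 6 genes overlapped, so their order is not fixed by the data. At the lower end lay Foxp3 (0.18 FPKM), Klrb1c (the NK1.1 antigen, 0.13 FPKM) and Ncr1 (the NK receptor NKp46, 0.09 FPKM). In the 8 tumour libraries Tcf7, which encodes the transcription factor TCF-1, was first with a median of 21.4 FPKM and a range of 17.4 to 32.3 FPKM. Trbc2 (8.78), Trbc1 (6.33), Gzma (5.48), Trac (5.14), Gzmb (4.76) and Zap70 (4.75) followed, with ranges that overlapped. Klrb1c (0.09) and Ncr1 (0.08) were last again. Trbc1 and Trbc2 are near-identical copies that share 40.5% and 44.0% of their 50-base stretches, so reads could be split between them, and 14.7% of those of Foxp3 lie also in the overlapping gene Flicr. The libraries do not keep strand.

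**Figure D1:**
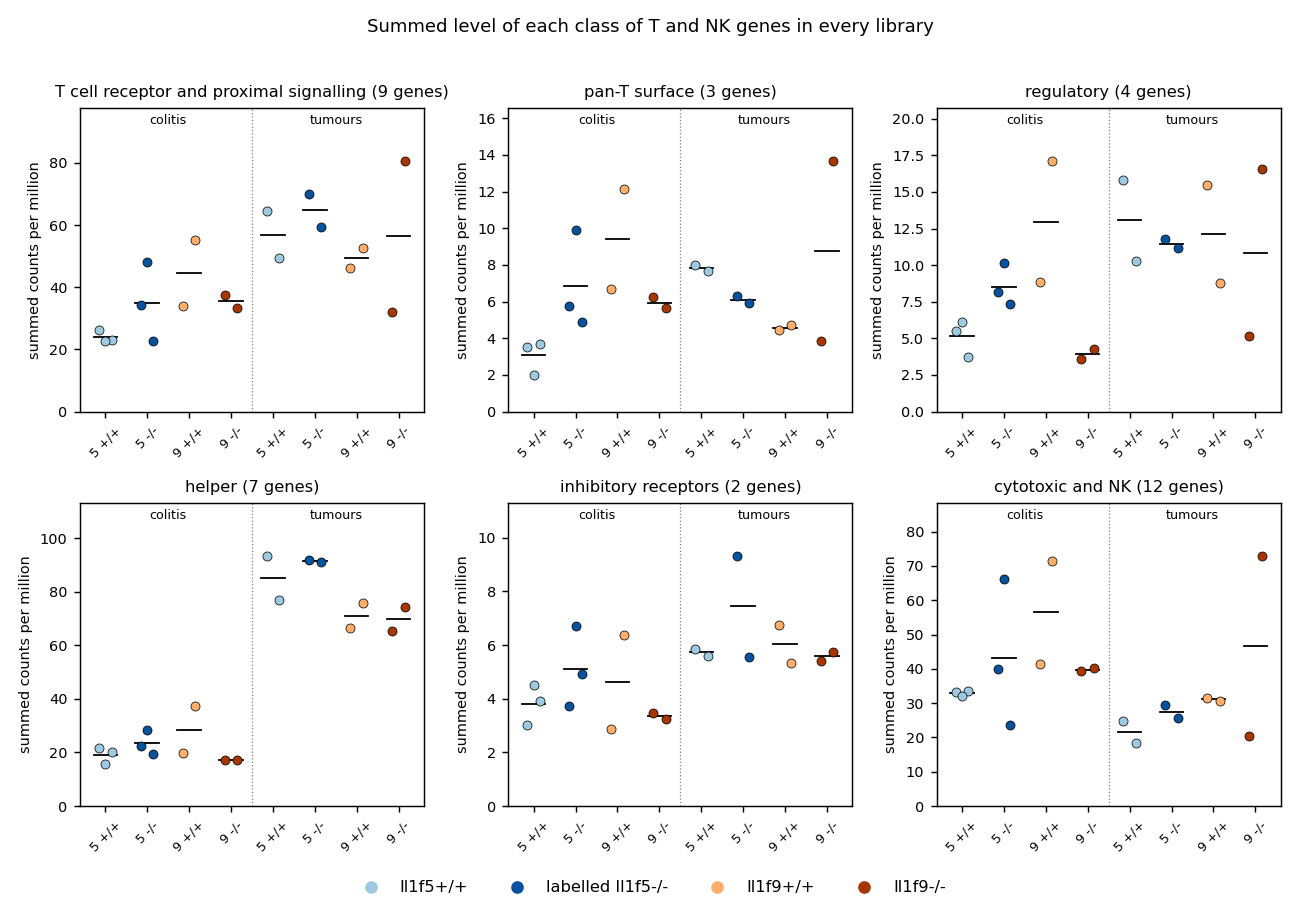
Summed CPM of each of the 6 gene classes in every library of the 8 groups; points are libraries and the black bar is the group mean. The helper sum lies at 65.3 to 93.5 CPM in the 8 tumour libraries against 15.5 to 37.2 in the 10 colitis libraries, while the cytotoxic and NK sum overlaps between them; without Tcf7 the helper sum is 12.8 to 28.7 CPM in tumours and 8.96 to 28.9 in colitis.

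The plot of class sums shows how the classes were spread. In colitis the regulatory genes summed to 3.73 to 6.14 CPM in the Il1f5+/+ libraries, 7.31 to 10.1 in those labelled Il1f5-/-, 8.82 to 17.1 in Il1f9+/+ and 3.60 to 4.28 in Il1f9-/-. The cytotoxic and NK genes summed to 32.0 to 33.5, 23.7 to 66.2, 41.3 to 71.6 and 39.5 to 40.2 CPM in the same order. The wild-type groups of the 2 lines therefore did not share a baseline in colitis: every regulatory sum of Il1f9+/+ exceeded every one of Il1f5+/+, a difference that was not tested. These are pieces of whole tissue, in which fewer cells of a type and less RNA per cell cannot be told apart.

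In colitis, the libraries labelled Il1f5-/- had more mRNA of 2 T cell surface receptors and 2 inhibitory receptors than their wild type, and less mRNA of 2 NK receptors. Cd5, Cd6, Ctla4 and Tigit rose by 0.99 to 2.05 on the log2 scale, and Ncr1 and Klrk1 fell. Of the 36 genes tested (Klrb1c was too low), the 4 that rose are 11.1%, against 13.7% of all 18299 genes tested, and the 2 that fell are 5.56% against 11.0%. Neither share exceeds that of the table as a whole. In a fit over all 18 libraries the calls of Cd6 (adjusted p = 0.0743), Ctla4 (0.153) and Klrk1 (0.107) were lost. A gene was called where edgeR's quasi-likelihood test gave an adjusted p under 0.05 over all genes tested, and changes are log2 fold changes ± SE. The point estimates lay above 0 for 29 of the 36 genes, with a median of 0.49 against -0.0085 over all genes.

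Cd5, which encodes a surface receptor that dampens T cell receptor signalling, stood at 0.48, 0.60 and 0.17 CPM in the 3 Il1f5+/+ libraries and at 1.60, 1.02 and 2.60 CPM in the 3 labelled Il1f5-/-. The groups did not overlap. The log2 change was 2.05 ± 0.49 (adjusted p = 0.0133), and this call held without any 1 library. Cd6, a related receptor of T cells, stood at 0.85, 1.20 and 0.80 against 1.49, 2.30 and 3.90 CPM. Its lowest library labelled Il1f5-/- lay above its highest wild-type library, with a change of 1.39 ± 0.41 (adjusted p = 0.0309); the call was lost without Il1f5+/+ replicate 1, Il1f5+/+ replicate 2, Il1f5+/+ replicate 3, labelled Il1f5-/- replicate 2 or labelled Il1f5-/- replicate 3 (adjusted p from 0.0601 to 0.102). Cd2, an adhesion receptor and the remaining gene of that class, was not called (0.53 ± 0.37, adjusted p = 0.309).

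Among the regulatory genes, Ctla4 encodes a receptor that competes with CD28 for its ligands. It lay at 1.96, 1.44 and 2.36 CPM in Il1f5+/+ and 3.32, 4.04 and 4.63 CPM in the libraries labelled Il1f5-/-. The groups were apart, by 0.99 ± 0.30 (adjusted p = 0.0337), but the call was lost without Il1f5+/+ replicate 1, Il1f5+/+ replicate 2, labelled Il1f5-/- replicate 2 or labelled Il1f5-/- replicate 3 (adjusted p from 0.0673 to 0.121). Tigit, an inhibitory receptor of T and NK cells, lay at 0.53, 0.42 and 0.55 against 1.14, 1.33 and 1.86 CPM. All 3 values were above those of the wild type (1.45 ± 0.40, adjusted p = 0.0227), and the call was lost without Il1f5+/+ replicate 1, Il1f5+/+ replicate 2, Il1f5+/+ replicate 3 or labelled Il1f5-/- replicate 3 (adjusted p from 0.0502 to 0.0804). Foxp3 itself was at 0.79, 0.54 and 0.63 against 0.97, 0.51 and 1.02 CPM and overlapped (0.27 ± 0.44, adjusted p = 0.682). So did Il2ra, the alpha chain of the IL-2 receptor, at 2.22, 1.32 and 2.61 against 2.74, 1.43 and 2.60 CPM (0.06 ± 0.32, adjusted p = 0.912). Of the 4 regulatory genes, then, the inhibitory receptors were called and the lineage factor and cytokine receptor were not.

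Ncr1 and Klrk1 went the other way. Ncr1 had 13, 9 and 11 counts in the 3 Il1f5+/+ libraries and 3, 1 and 2 in those labelled Il1f5-/-, a pooled ratio of 0.197 in CPM with a 95% interval of 0.0675 to 0.476 that covers counting error only. The fitted change was -2.34 ± 0.64 (adjusted p = 0.0229), and the call was lost without labelled Il1f5-/- replicate 2 (adjusted p 0.0824) and with DESeq2 (adjusted p = 0.0527). Without Il1f5+/+ replicate 1 or 2, or with the 2 groups fitted alone, Ncr1 did not pass the expression filter and had no test. Klrk1, which encodes the activating receptor NKG2D of NK cells and CD8 T cells, stood at 3.07, 4.15 and 4.04 CPM against 2.63, 1.13 and 1.36 CPM. Every value labelled Il1f5-/- was below every wild-type value (-1.21 ± 0.33, adjusted p = 0.0224), and the call was lost without Il1f5+/+ replicate 2, Il1f5+/+ replicate 3 or labelled Il1f5-/- replicate 2 (adjusted p from 0.0578 to 0.082). The promoters of these 2 genes, the 2 members that fell in this comparison, are shown with every match to 6 short motifs of lymphocyte transcription factors in capitals. They span 250 bases before to 50 after the RefSeq start in GRCm38.p6, at chr7:4337474-4337773 on the plus strand for Ncr1 and chr6:129623815-129624114 on the minus strand for Klrk1.
Ncr1: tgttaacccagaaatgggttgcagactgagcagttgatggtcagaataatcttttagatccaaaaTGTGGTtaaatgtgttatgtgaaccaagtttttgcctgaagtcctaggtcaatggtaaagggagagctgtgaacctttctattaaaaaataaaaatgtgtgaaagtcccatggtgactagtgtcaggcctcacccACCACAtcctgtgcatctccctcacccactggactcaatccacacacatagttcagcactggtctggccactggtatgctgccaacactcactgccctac
Klrk1: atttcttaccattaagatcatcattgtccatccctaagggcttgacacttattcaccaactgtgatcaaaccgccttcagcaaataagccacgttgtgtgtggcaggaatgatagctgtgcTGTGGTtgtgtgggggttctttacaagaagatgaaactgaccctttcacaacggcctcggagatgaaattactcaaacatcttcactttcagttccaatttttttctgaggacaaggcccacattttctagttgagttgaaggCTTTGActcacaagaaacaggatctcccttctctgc
Ncr1 holds the RUNX letters TGTGGT at positions -185 to -180 and their reverse complement at -50 to -45 from the start, and Klrk1 holds them at -129 to -124, with the TCF and LEF letters CTTTGA at 15 to 20. The RUNX letters occur on either strand in 10 of the 24 member promoters found in the RefSeq table and in 16.8% of its 32851 promoters, and CTTTGA in 5 of 24 and 16.0%. These are letter matches and not binding sites. The other motifs searched on both strands were the STAT element TTCNNNGAA (4 of 24, 8.30%), GATA as AGATAA (2 of 24, 11.2%), NFAT as GGAAAA (5 of 24, 23.4%) and T-box as AGGTGT (9 of 24, 13.7%). Matches of different motifs did not overlap within either sequence.

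The other killer genes were not called in this comparison. Gzma stood at 2.59, 3.73 and 2.99 against 5.95, 3.53 and 10.1 CPM, with the third library labelled Il1f5-/- far above the rest (1.01 ± 0.37, adjusted p = 0.0677). It passed with DESeq2 (adjusted p = 0.0228) and without replicate 2 of the libraries labelled Il1f5-/- (adjusted p = 0.0250). Gzmb had the same spread, at 6.03, 4.81 and 4.96 against 9.61, 5.32 and 23.8 CPM (1.24 ± 0.53, adjusted p = 0.126), and passed without the same library (adjusted p = 0.0379). Prf1, which encodes perforin, was at 1.11, 1.08 and 0.88 against 0.34, 0.56 and 1.13 CPM (-0.64 ± 0.41, adjusted p = 0.268), with the third library labelled Il1f5-/- at the wild-type level and the other 2 below it; without that library it passed (adjusted p = 0.0410). Nkg7 overlapped, at 2.59, 1.56 and 3.36 against 3.09, 1.38 and 5.03 CPM (0.26 ± 0.43, adjusted p = 0.686). Klrb1c, untested, lay at 0.42, 0.36 and 0.46 against 0.74, 0.26 and 0.45 CPM. Cd8a, a chain of the CD8 co-receptor, was at 4.66, 3.13 and 3.20 against 5.03, 2.76 and 8.76 CPM (0.53 ± 0.37, adjusted p = 0.307). Across all of these, the third replicate labelled Il1f5-/- was the highest of its group except for Klrb1c, and the second was the lowest except for Prf1.

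No receptor or helper gene was called. For the 9 receptor genes all 9 estimates lay above 0, with a median of 0.69 (edgeR; Trac, Cd3g and Zap70 had an unadjusted p under 0.05, and Cd3g passed without the filter on low counts, adjusted p = 0.0414). Cd3e, a CD3 chain present on every T cell, was at 2.12, 0.84 and 1.85 CPM in Il1f5+/+ and 2.80, 1.43 and 3.96 CPM in the libraries labelled Il1f5-/-, and overlapped (0.69 ± 0.41, adjusted p = 0.239). Cd4, the co-receptor of helper cells, was at 4.44, 4.51 and 2.61 against 5.15, 4.91 and 6.33 CPM: the groups did not overlap, but the change of 0.45 ± 0.31 was not called (adjusted p = 0.312). Gata3, a transcription factor of type 2 helper cells, was at 1.38, 2.17 and 1.93 against 1.89, 0.87 and 2.32 CPM (-0.18 ± 0.35, adjusted p = 0.742). Tbx21, its counterpart in type 1 helper cells and killer cells, was at 1.38, 0.78 and 0.67 against 0.91, 0.41 and 1.02 CPM (-0.34 ± 0.50, adjusted p = 0.651). Tcf7 was at 8.46, 8.48 and 6.56 against 7.32, 6.60 and 9.89 CPM (-0.04 ± 0.21, adjusted p = 0.907). Cd28 and Icos, which encode costimulatory receptors, gave estimates of 0.77 and 0.75 (adjusted p = 0.231 and 0.165). Both groups were separate for 9 genes in the upward direction, 25.0% of those tested against 25.8% of all genes, and for 2 in the downward direction, 5.56% against 17.5%.

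Among 45 other genes of T and NK cells, chosen by function with earlier results of these data known, 41 were tested, 3 rose and 2 fell. Of all genes tested 13.7% rose and 11.0% fell, so neither share of the list exceeds that of the table as a whole. Maf, a transcription factor of IL-10-producing T cells and of macrophages, rose from 22.9 ± 0.95 to 44.7 ± 1.15 CPM (mean ± SD, n = 3; 0.90 ± 0.10, adjusted p = 0.000721). Il10 rose too, from 8, 0 and 8 counts to 17, 32 and 27, a ratio of 5.15 in CPM with a 95% counting interval of 2.97 to 9.45 (adjusted p = 0.0205). Ifng, the type 1 cytokine made by T and NK cells, fell from 49, 35 and 131 counts to 4, 1 and 9, a ratio of 0.0705 with an interval of 0.0379 to 0.121 (adjusted p = 0.00639). In the fit over all 18 libraries the calls of Ifng (adjusted p = 0.0765) and S1pr1 (0.0786) were lost. Xcl1, a chemokine of NK and CD8 T cells, fell with it (-1.26 ± 0.35, adjusted p = 0.0246), and S1pr1, a receptor for leaving tissue that endothelium also makes, rose (0.77 ± 0.20, adjusted p = 0.0204). The call of Xcl1 was lost without any 1 library except replicate 3 labelled Il1f5-/- (adjusted p up to 0.0891), that of S1pr1 without Il1f5+/+ replicate 1, Il1f5+/+ replicate 2 or replicate 2 labelled Il1f5-/- (up to 0.0808) and that of Il10 without replicate 2 labelled Il1f5-/- (0.0643). Markers of other cells moved in the same libraries: 5 of 5 endothelial, 4 of 5 fibroblast, 4 of 6 plasma cell and 3 of 5 smooth muscle markers rose. So did 2 of 5 innate lymphoid and mast cell and 1 of 4 lymphoid follicle markers. The endothelial sum was 217 to 291 CPM against 122 to 133. The innate lymphoid and mast cell sum was 152 to 202 CPM against 72.9 to 94.4. Its list is Il23r, Kit, Cpa3, Il1rl1, Mcpt1 and Mcpt2, and Il23r had at most 7 counts in any of the 18 libraries. The follicle sum was 38.6 to 69.0 CPM against 19.6 to 22.2. None of the 4 pan-leukocyte, 6 neutrophil or 8 B cell markers was called in either direction. The part of these shifts in the members' changes was not tested.

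**Figure D2:**
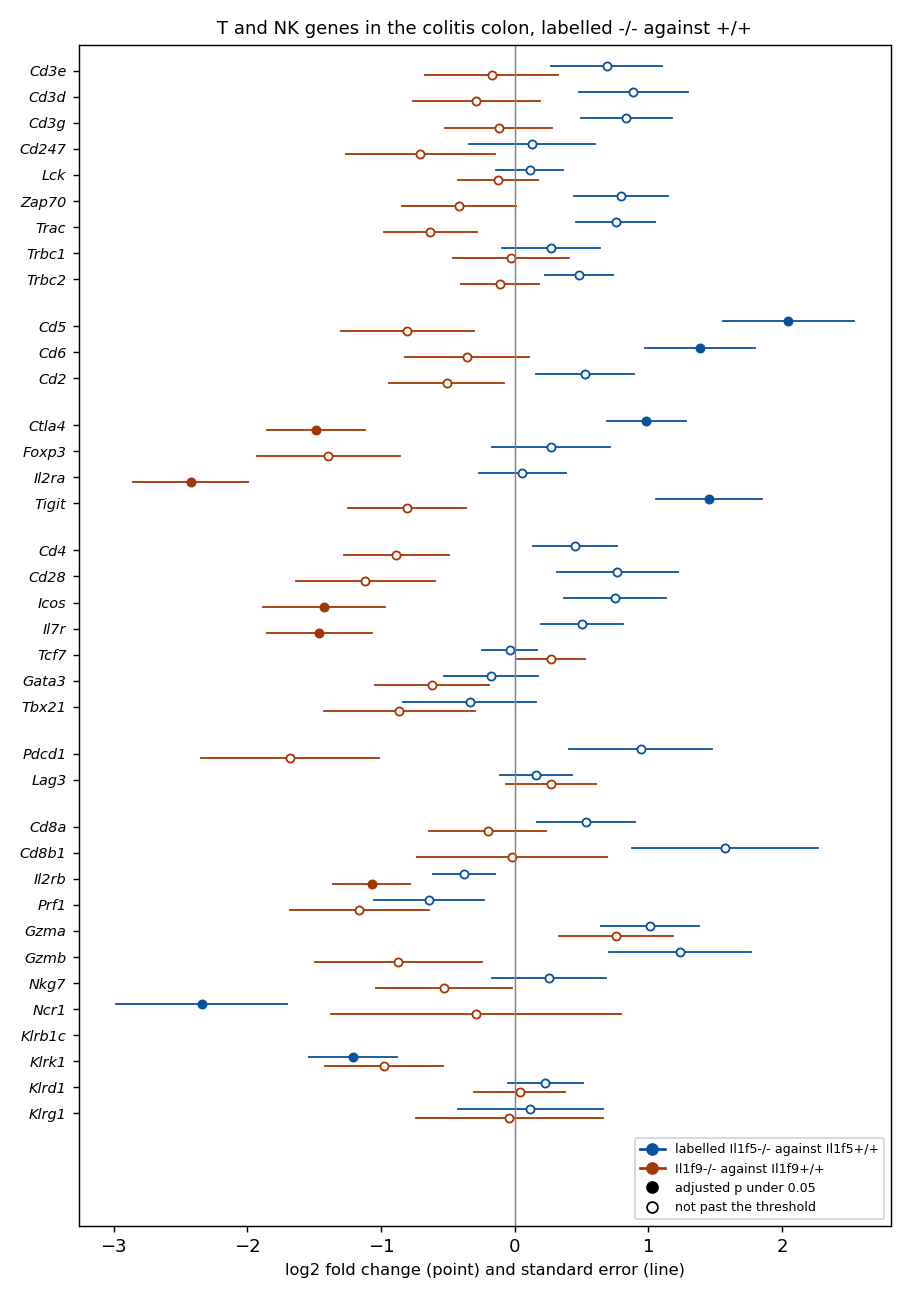
Log2 fold change of the tested genes in colitis for each line, Il1f9-/- and the libraries labelled Il1f5-/- over their +/+ libraries, with bars of 1 SE; filled points have an adjusted p under 0.05. Most points lie above 0 in the Il1f5 line (29 of 36) and below 0 in the Il1f9 line (32 of 36).

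In colitis of the Il1f9 line, 2 regulatory genes (Il2ra and Ctla4), 2 helper genes (Il7r and Icos) and 1 of the cytotoxic and NK class (Il2rb) were lower in the knockout and none was higher, as the plot of colitis changes by gene shows. These 5 fell by 1.07 to 2.43 on the log2 scale. They are 13.9% of the 36 tested genes, against 9.98% of all genes tested, a small excess at so low a count, and no member rose, against 9.59% of all genes (edgeR; at an unadjusted p under 0.05, 10 were lower and 0 higher, and DESeq2 called 5 lower and 0 higher). The estimates lay below 0 for 32 of 36 genes, with a median of -0.57 against -0.0086 over all genes. With 2 libraries a group the count rests on single animals: 8 genes were called lower without Il1f9+/+ replicate 1, 1 without Il1f9+/+ replicate 2, 2 without Il1f9-/- replicate 1 and 1 without Il1f9-/- replicate 2. In a fit over all 18 libraries the calls of Ctla4 (adjusted p = 0.0978), Icos (0.0818) and Il2rb (0.130) were lost. The 2 wild-type libraries differed from each other in most T cell genes, replicate 2 being higher.

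Il2ra stood at 3.34 and 5.26 CPM in Il1f9+/+ and 0.69 and 0.78 CPM in Il1f9-/-. The groups were far apart, the change was -2.43 ± 0.43 (adjusted p = 0.00343), and the call held without any 1 library. Ctla4 stood at 3.39 and 7.40 against 1.77 and 1.75 CPM. The knockout values were close together and below both wild-type values (-1.49 ± 0.37, adjusted p = 0.0162), and the call was lost without Il1f9+/+ replicate 2, Il1f9-/- replicate 1 or Il1f9-/- replicate 2 (adjusted p from 0.083 to 0.169). Foxp3 was at 0.76 and 2.15 against 0.57 and 0.44 CPM, did not overlap, and was not called (-1.39 ± 0.53, adjusted p = 0.0871); it passed without Il1f9+/+ replicate 1 (adjusted p = 0.0249). Tigit was not called (-0.80 ± 0.44, adjusted p = 0.227). The Foxp3 and Tigit values of the first wild-type library came close to those of the knockout, which those of Il2ra did not.

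Il7r encodes the receptor for the survival cytokine IL-7, found on naive and memory T cells and innate lymphoid cells. It was at 2.74 and 4.94 CPM in Il1f9+/+ and 1.09 and 1.46 CPM in Il1f9-/-, without overlap (-1.46 ± 0.39, adjusted p = 0.0239). The call was lost without Il1f9+/+ replicate 2, Il1f9-/- replicate 1 or Il1f9-/- replicate 2 (adjusted p from 0.0766 to 0.184) and with the replicate number as a block (adjusted p = 0.0516). Icos was at 2.63 and 6.38 against 1.71 and 1.36 CPM, with wild-type replicate 2 well above the other 3 libraries (-1.43 ± 0.46, adjusted p = 0.0482). That call was lost without Il1f9+/+ replicate 2, Il1f9-/- replicate 1 or Il1f9-/- replicate 2 (adjusted p from 0.132 to 0.396), with the block (adjusted p = 0.0948) and when the 2 groups were fitted alone (adjusted p = 0.0630). Il2rb, the beta chain that IL-2 and IL-15 receptors share on T and NK cells, was at 7.60 and 13.3 against 5.31 and 3.84 CPM. Both knockout values were lower (-1.07 ± 0.29, adjusted p = 0.0245), and the call was lost without Il1f9+/+ replicate 2 or Il1f9-/- replicate 2 (adjusted p from 0.163 to 0.204) and with the 2 groups alone (adjusted p = 0.0521).

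The promoters of Il2ra and Il7r, 2 of the receptor genes that fell, are given in the same way, at chr2:11642542-11642841 on the plus strand and chr15:9529827-9530126 on the minus strand. The RefSeq starts lie 15 and 300 bases from the starts in the deposited tables.
Il2ra: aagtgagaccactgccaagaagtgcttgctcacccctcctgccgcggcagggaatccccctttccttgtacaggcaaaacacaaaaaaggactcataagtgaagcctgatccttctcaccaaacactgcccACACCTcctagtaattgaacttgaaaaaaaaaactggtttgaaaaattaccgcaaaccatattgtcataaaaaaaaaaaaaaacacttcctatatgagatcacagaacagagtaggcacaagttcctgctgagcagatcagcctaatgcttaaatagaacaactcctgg
Il7r: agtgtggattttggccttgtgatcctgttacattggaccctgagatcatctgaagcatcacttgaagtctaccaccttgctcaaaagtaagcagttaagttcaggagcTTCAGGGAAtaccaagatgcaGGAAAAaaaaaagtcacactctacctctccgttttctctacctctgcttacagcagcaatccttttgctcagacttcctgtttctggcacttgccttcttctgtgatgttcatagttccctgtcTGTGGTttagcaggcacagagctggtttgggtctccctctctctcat
Il2ra has a single match, to the T-box letters at -119 to -114. Il7r has the STAT element TTCAGGGAA at -142 to -134, the NFAT letters at -121 to -116 and the RUNX letters at 4 to 9.

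The remaining helper and killer genes of this comparison were not called. Cd4 lay at 3.5 and 8.69 against 3.37 and 2.67 CPM (-0.89 ± 0.39, adjusted p = 0.133) and passed without Il1f9+/+ replicate 1 (adjusted p = 0.0220). Gata3 was at 2.74 and 2.52 against 1.88 and 1.31 CPM (-0.62 ± 0.42, adjusted p = 0.335). Tbx21 overlapped, at 1.06 and 2.52 against 0.51 and 1.26 CPM (-0.86 ± 0.57, adjusted p = 0.312). Gata3 and Cd4 were thus lower in both knockout libraries without a call. By edgeR's test Cd4 had an unadjusted p under 0.05 and Gata3 did not. Tcf7 was at 5.42 and 8.26 against 7.54 and 7.73 CPM (0.27 ± 0.25, adjusted p = 0.489). Cd3e was at 1.77 and 3.38 against 2.11 and 2.09 CPM (-0.17 ± 0.50, adjusted p = 0.848), the knockout values lying between the wild-type ones. Pdcd1, which encodes the inhibitory receptor PD-1, was not called (-1.68 ± 0.67, adjusted p = 0.1) and passed without Il1f9+/+ replicate 1 (adjusted p = 0.0237).

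Granzymes A and B stood in different order in the 2 genotypes of this line. Gzma was at 4.66 and 9.28 CPM in Il1f9+/+ and 10.5 and 11.2 CPM in Il1f9-/-, the only member whose knockout values both exceeded the wild-type ones (0.76 ± 0.43, adjusted p = 0.239). Gzmb was at 12.4 and 25.7 against 9.65 and 9.48 CPM, in the opposite order (-0.87 ± 0.62, adjusted p = 0.374). The ratio of Gzmb to Gzma counts was 2.66 to 2.77 in Il1f9+/+ and 0.84 to 0.92 in Il1f9-/-; it was not tested. Prf1 was at 0.96 and 1.34 against 0.46 and 0.49 CPM (-1.16 ± 0.52, adjusted p = 0.138). Nkg7 was at 3.5 and 5.53 against 3.20 and 2.58 CPM (-0.53 ± 0.51, adjusted p = 0.511) and Cd8a at 5.88 and 7.94 against 4.63 and 6.47 CPM (-0.20 ± 0.44, adjusted p = 0.79). Nkg7 was lower in both knockout libraries and Cd8a overlapped. Ncr1 was near 0 in all 4 libraries, with 2 and 2 counts in Il1f9+/+ and 0 and 3 in Il1f9-/-, and Klrb1c lay at 0.35 and 0.43 against 0.29 and 0.29 CPM. The groups were separate for 19 genes in the downward direction, 52.8% of those tested against 37.8% of all genes, and for Gzma alone in the upward direction, against 24.0%.

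Other T and NK genes fell in the same knockout libraries. Of the 41 tested genes from the list of other T and NK genes, 10 fell and none rose (edgeR), against 9.98% and 9.59% of all genes. Lcp2, an adaptor of T cell receptor signalling that myeloid cells also make, fell from 19.7 ± 0.46 to 4.35 ± 0.72 CPM (mean ± SD, n = 2; -2.07 ± 0.24, adjusted p = 0.0004). Havcr2, which encodes TIM-3 and is found on T cells and macrophages, also fell (-1.95 ± 0.27, adjusted p = 0.000983). So did Maf (-0.88 ± 0.13, adjusted p = 0.00124) and Trdc, the constant region of the gamma-delta receptor (-2.06 ± 0.37, adjusted p = 0.00347). Il17a, the cytokine of type 17 cells, had 50 and 71 counts in Il1f9+/+ and 1 and 0 in Il1f9-/-, a pooled ratio of 0.00833 with a 95% counting interval of 0.000209 to 0.0473 (adjusted p = 0.00276). Markers of other cells moved as well: 8 of 8 macrophage, 5 of 6 neutrophil, 4 of 4 pan-leukocyte, 4 of 5 fibroblast and 4 of 5 endothelial markers fell, while 5 of 5 smooth muscle, 5 of 10 epithelial and 3 of 6 plasma cell markers rose. Of the 4 tested lymphoid follicle markers 1 fell, with 2 estimates below 0 and 2 above. The follicle sum was 91.3 to 118 CPM in Il1f9+/+ and 22.1 to 27.8 in Il1f9-/-. Within that sum Cxcl13 was at 52.5 and 101 against 7.82 and 7.97 CPM. The lymphocyte genes Cxcr5 (2.03 and 4.24 against 4.74 and 2.97 CPM) and Ltb (11.1 and 11.6 against 12.9 and 9.68 CPM) overlapped between the genotypes. The plasma cell sum was 1385 to 2591 CPM in Il1f9+/+ and 4125 to 4309 in Il1f9-/-, and none of the 8 B cell markers was called, with all 8 estimates above 0. The macrophage sum was 375 to 528 CPM in Il1f9+/+ and 117 to 149.9 in Il1f9-/-, and Ptprc, which encodes CD45, fell from 85.6 ± 23.8 to 31.6 ± 4.48 CPM (adjusted p = 0.000816). Their part in the fall of the members was not tested. Per Cd3e count, Il2ra was at 1.56 to 1.89 in Il1f9+/+ and 0.32 to 0.37 in Il1f9-/-, Ctla4 at 1.91 to 2.19 and 0.84 to 0.84, and Foxp3 at 0.43 to 0.63 and 0.21 to 0.27. Il2ra and Ctla4 were called in these same libraries and Cd3e was not, so their ratios restate those calls and add no separate evidence. Foxp3 was not called. The ratios rest on few Cd3e counts and were not tested.

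**Figure D3:**
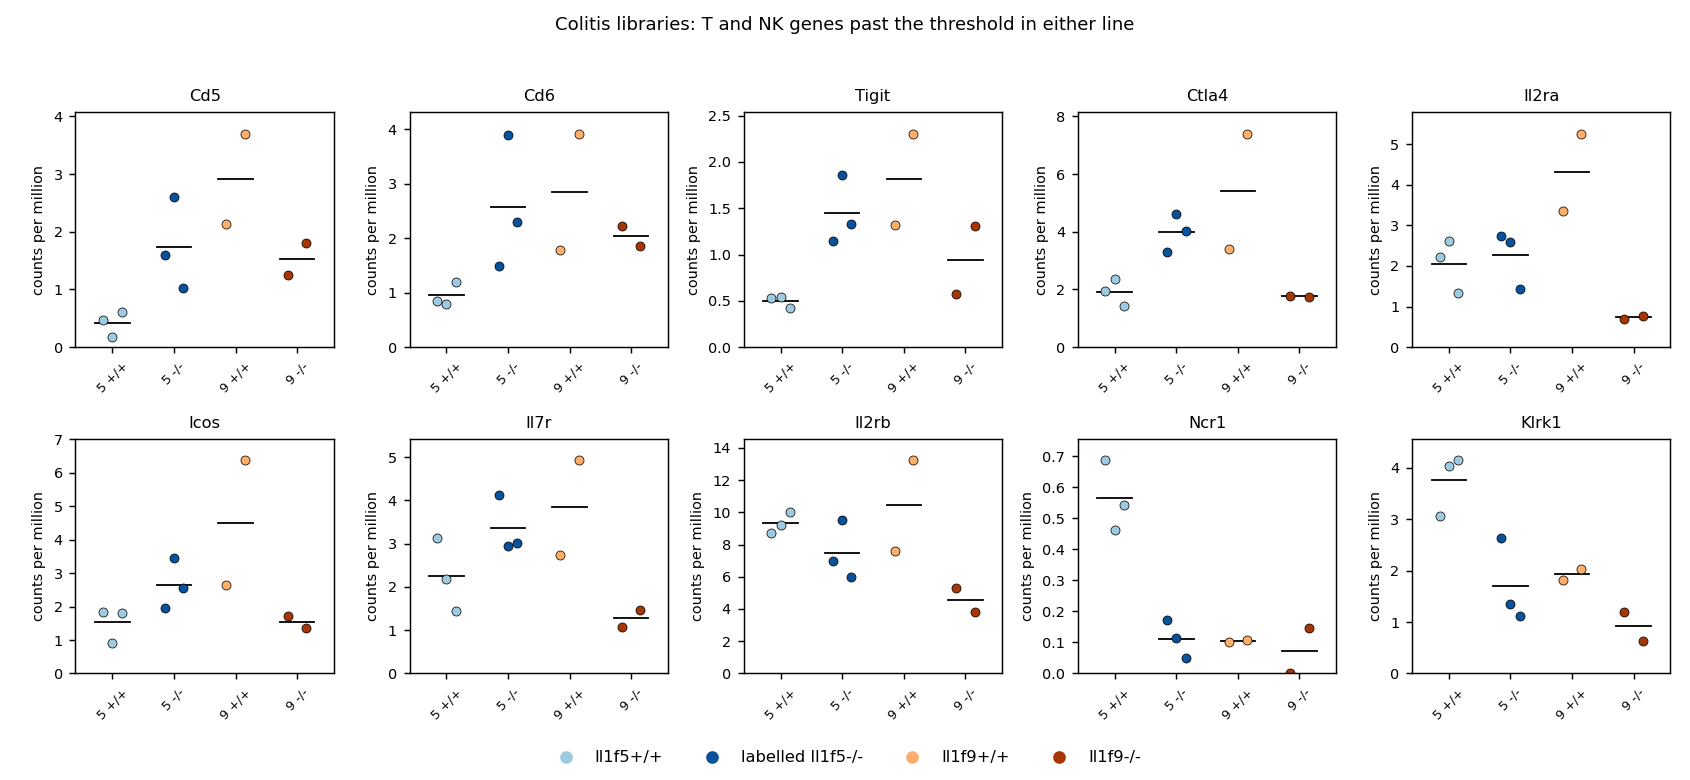
CPM of the genes called in either colitis comparison, by library; points are libraries and the black bar is the group mean. Ctla4 is the only gene called in both, at 1.44 to 2.36 CPM against 3.32 to 4.63 in the Il1f5 line and 3.39 to 7.40 against 1.75 to 1.77 in the Il1f9 line.

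In colitis the change from +/+ to the libraries labelled -/- differed between the 2 lines for 8 genes, all of them higher in the Il1f5 line than in the Il1f9 line. They are 22.2% of the 36 tested genes, against 12.8% of all genes, and none was lower, against 12.0% of all genes (edgeR; at an unadjusted p under 0.05, 14 were higher and 0 lower, and DESeq2 called 10 and 0). The difference of log2 changes was 2.85 ± 0.70 for Cd5 (adjusted p = 0.0143), 2.48 ± 0.54 for Il2ra (adjusted p = 0.00815) and 2.47 ± 0.47 for Ctla4 (adjusted p = 0.00477). It was 2.26 ± 0.59 for Tigit (adjusted p = 0.0192), 2.18 ± 0.60 for Icos (adjusted p = 0.0223) and 1.97 ± 0.50 for Il7r (adjusted p = 0.0165). Pdcd1 (2.62 ± 0.85, adjusted p = 0.0449) and Trac, the constant region of the receptor's alpha chain (1.39 ± 0.46, adjusted p = 0.0452), complete the 8. Il2ra, Ctla4 and Tigit, 3 of the 4 regulatory genes, are among them, and none of the 11 tested cytotoxic and NK genes is, although Gzmb passed without replicate 2 or replicate 3 labelled Il1f5-/- (adjusted p = 0.0251 and 0.0436). As the plot of genes called in colitis shows, the wild-type levels differed as well: Cd5 lay at 0.17 to 0.60 CPM in Il1f5+/+ and 2.13 to 3.70 in Il1f9+/+. The number of genes called fell most without Il1f9+/+ replicate 2. It also fell without either Il1f9-/- library, without any Il1f5+/+ library and without replicate 3 labelled Il1f5-/-. Only without Il1f9+/+ replicate 1 did it rise. Of markers of other cells, 7 of 8 macrophage, 5 of 6 neutrophil and 4 of 4 pan-leukocyte markers differed in the same direction. So did 5 of 5 endothelial, 4 of 5 fibroblast, 1 of 4 lymphoid follicle and 1 of 5 innate lymphoid and mast cell markers. In the opposite direction, 6 of 10 epithelial and 1 of 8 B cell markers differed. Their part in the members' differences was not tested.
Il2ra and Ctla4 kept the call without any 1 library. Without Il1f9+/+ replicate 2 it was lost for Cd5 (adjusted p = 0.0638), Tigit (0.0935), Icos (0.121), Il7r (0.0837), Pdcd1 (0.268) and Trac (0.158). Tigit and Il7r also lost it without Il1f9-/- replicate 1 (0.0607 and 0.0604) and Icos without Il1f9-/- replicate 2 (0.0970). Pdcd1 lost it without any 1 library except replicate 1 labelled Il1f5-/- and Il1f9+/+ replicate 1 (up to 0.268), and Trac without any except replicate 2 labelled Il1f5-/- and Il1f9+/+ replicate 1 (up to 0.158).

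In tumours none of the 35 tested genes was called between the genotypes of either line. For the Il1f5 line 0 of 35 tested genes were called higher, against 0.0112% of all 17859 genes tested, and 0 lower, against 0.0168%. At an unadjusted p under 0.05 Tcf7 was higher and Il7r lower, and DESeq2 called none. For the Il1f9 line 0 of 35 were called higher, against 0.0056% of all genes, and 0 lower, against 0.0112%. At an unadjusted p under 0.05 5 genes were higher (Nkg7, Cd4, Cd3g, Cd6 and Cd5) and none lower, and DESeq2 called none. edgeR's test thus called almost nothing in these tables, 5 genes in the Il1f5 line and 3 in the Il1f9 line, and 0 is close to that share. DESeq2 called 1230 and 158 genes in all, with no member among them.

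In the Il1f5 line Tcf7 stood at 69.7 and 57.2 CPM in Il1f5+/+ and 76.2 and 75.8 CPM in the tumours labelled Il1f5-/-, higher in both (0.43 ± 0.16, adjusted p = 0.148). Il7r stood at 8.72 and 5.84 against 3.58 and 3.01 CPM, lower in both (-0.97 ± 0.37, adjusted p = 0.162). These were the pair closest to a call. Foxp3, at 3.63 and 2.75 against 3.39 and 2.28 CPM, and Il2ra, at 3.02 and 2.75 against 3.07 and 2.90 CPM, overlapped. Ctla4 was at 7.71 and 4.12 against 3.48 and 3.95 CPM, with wild-type replicate 1 far above the other 3 (-0.50). Cd3e was at 2.52 and 2.75 against 2.55 and 1.67 CPM, Cd4 at 5.53 and 5.84 against 5.76 and 4.40 CPM and Cd8a at 2.68 and 1.09 against 1.90 and 1.56 CPM, and all 3 overlapped. Gata3 was at 3.52 and 3.21 against 2.55 and 3.79 CPM, with the values labelled Il1f5-/- on both sides of the wild-type ones. The cytotoxic or type 1 genes Gzma, Gzmb, Prf1, Il2rb and Tbx21 were higher in both tumours labelled Il1f5-/- without a call. Of the 10 tested genes of the cytotoxic and NK class, 8 estimates lay above 0 and 2 below. Gzma was at 3.02 and 2.46 against 4.18 and 4.46 CPM and Gzmb at 5.42 and 3.55 against 6.41 and 6.46 CPM. Prf1 was at 0.50 and 0 against 0.70 and 0.72 CPM and Tbx21 at 0.28 and 0.34 against 0.56 and 0.56 CPM. For Prf1 wild-type replicate 2 had no read, which at the floor of 3 counts allows up to 0.172 CPM. Nkg7 overlapped, at 1.62 and 1.26 against 2.55 and 1.28 CPM. Groups were separate upward for 10 genes, 28.6% of those tested against 22.3% of all genes, and downward for 9, 25.7% against 41.4%.

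In the Il1f9 line most of the 37 genes were highest in Il1f9-/- replicate 2, the tumour that stood apart (31 of 37). The same share over all genes was not determined, so this count does not set these genes apart from others. Cd4 was at 2.32 and 3.73 CPM in Il1f9+/+ and 3.49 and 12.3 CPM in Il1f9-/- (1.36 ± 0.54, adjusted p = 0.551). Nkg7 was at 0.53 and 0.66 against 0.80 and 4.07 CPM (1.99 ± 0.74, adjusted p = 0.531). In both the first knockout library lay near the wild type and the second far above it. Gzma was at 8.75 and 10.6 against 6.38 and 29.7 CPM (0.87 ± 0.59, adjusted p = 0.708) and was called only without Il1f9-/- replicate 1 (adjusted p = 0.0361), where the knockout is the single tumour that stood apart. Foxp3 was at 0.58 and 0.51 against 0.43 and 1.72 CPM, Il2ra at 3.48 and 2.45 against 1.39 and 4.12 CPM and Ctla4 at 10.8 and 5.21 against 2.63 and 9.81 CPM. For Il2ra and Foxp3 the knockout values lie on both sides of the wild-type ones, and for Ctla4 replicate 1 of each genotype is at an extreme. Cd3e was at 1.53 and 1.02 against 0.59 and 1.57 CPM, Cd8a at 1.85 and 1.23 against 2.14 and 3.03 CPM and Gzmb at 10.3 and 9.25 against 3.81 and 12.1 CPM. Of these 3, Cd8a alone was higher in both knockout tumours. Gata3, at 5.01 and 4.60 against 3.22 and 2.71 CPM, was the only gene lower in both knockout tumours (-0.72 ± 0.33, adjusted p = 0.586). Tcf7 was at 52.1 and 59.9 against 52.5 and 45.4 CPM, Tbx21 at 0.37 and 0.20 against 0.21 and 0.89 CPM and Prf1 at 0.37 and 0.72 against 0.32 and 0.83 CPM, with overlap in each. Groups were separate upward for 6 genes, 17.1% against 16.3% of all genes, and downward for 1, 2.86% against 16.7%.

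Ncr1 and Klrb1c were too low to test in tumours. Ncr1 had 3 and 3 counts in Il1f5+/+, 2 and 1 in the tumours labelled Il1f5-/-, 1 and 3 in Il1f9+/+ and 1 and 11 in Il1f9-/-, the last again in the tumour that stood apart. Klrb1c lay at 0.06 to 0.48 CPM over the 8 tumours. The difference of the 2 changes between the lines was called for 0 of 35 genes in either direction in tumours, against 0.0336% higher and 0.0448% lower of all genes (edgeR; 1 higher, Tcf7, and 1 lower, Il7r, at an unadjusted p under 0.05, and 0 with DESeq2).

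Wild-type tumours and wild-type colitis differed in many T cell transcripts, but the genes of the CD3 chains gave no call. In tumours 10 genes were higher, led by Tcf7 and Zap70, and 6 were lower, 5 of them from the cytotoxic and NK class and the other one Tbx21. The 10 are 27.8% of the 36 tested, against 30.1% of all 19514 genes, and the 6 are 16.7% against 31.1%, so that members were called no more often than other genes. Cd3e (-0.12 ± 0.37, adjusted p = 0.798), Cd3d (-0.16 ± 0.45, adjusted p = 0.77) and Cd3g (-0.02 ± 0.29, adjusted p = 0.948) were not called. Tissue, treatment, time and table cannot be told apart in this comparison of 4 tumour with 5 colitis libraries.

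**Figure D4:**
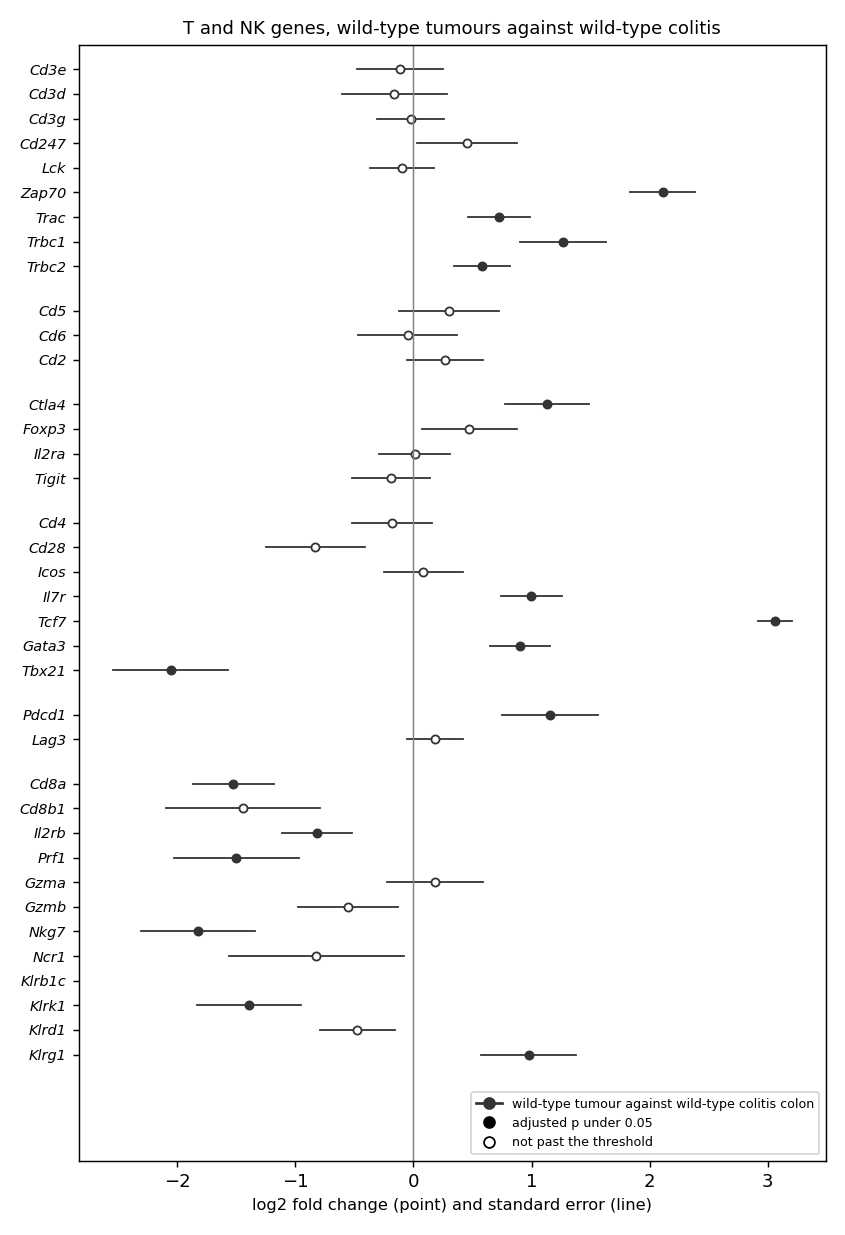
Log2 fold change of the tested genes in wild-type tumours over wild-type colitis, with bars of 1 SE; filled points have an adjusted p under 0.05. Tcf7 (3.06) and Zap70 (2.11) lie farthest to the right and Tbx21 (-2.05) and Nkg7 (-1.82) farthest to the left.

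Tcf7 was at 69.7 and 57.2 CPM in Il1f5+/+ and 52.1 and 59.9 CPM in Il1f9+/+ tumours, against 8.46, 8.48 and 6.56 and 5.42 and 8.26 CPM in colitis of the same lines. The lowest tumour was far above the highest colitis library, and the change was 3.06 ± 0.14 (adjusted p = 9.45e-11). Zap70, which encodes the kinase that docks on the phosphorylated receptor, was at 28.5 and 18.7 and 5.43 and 7.0 CPM in the tumours, against 2.43, 1.44 and 2.52 and 2.33 and 5.36 CPM in colitis (2.11 ± 0.27, adjusted p = 7.68e-06). It was far higher in tumours of the Il1f5 line than in the Il1f9 line, whose own change was 0.97 (adjusted p = 0.0507). Per Cd3e count, Tcf7 stood at 2.44 to 10.07 in the 10 colitis libraries and 20.81 to 89.00 in the 8 tumours, and Zap70 at 1.14 to 1.71 and 3.55 to 14.03, in neither case with overlap. Both genes were called between the wild-type libraries and Cd3e was not, so these ratios largely restate those calls and add no separate evidence. They rest on few Cd3e counts and were not tested. Lef1, the relative of TCF-1 that is also known from intestinal epithelial tumours with active Wnt signalling, was the gene of the other T and NK list with the smallest p, at 27.6 ± 13.5 CPM in tumours and 0.94 ± 0.40 in colitis (mean ± SD, n = 4 and 5; 4.77 ± 0.25, adjusted p = 3.09e-10).

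The 3 receptor constant regions were called higher in tumours as well, none of them within both lines. Trbc1 changed by 1.27 ± 0.36 (adjusted p = 0.00744), at 4.86 and 3.26 and 9.07 and 15.9 CPM against 3.02, 2.41 and 1.98 and 2.28 and 5.20 CPM. The highest values were those of the Il1f9+/+ tumours, and within the Il1f5 line the change was 0.52 (adjusted p = 0.428). Trbc2 was at 4.30 and 4.64 and 7.59 and 9.76 CPM against 2.54, 3.01 and 2.44 and 5.12 and 8.58 CPM and overlapped (0.58 ± 0.23, adjusted p = 0.0422). Trac was at 4.58 and 5.49 and 5.11 and 2.76 CPM against 2.33, 2.23 and 1.14 and 3.34 and 4.77 CPM, likewise with overlap (0.73 ± 0.26, adjusted p = 0.0261). The call of Trbc2 was lost without colitis Il1f5+/+ replicate 1, colitis Il1f5+/+ replicate 3, colitis Il1f9+/+ replicate 1, tumour Il1f5+/+ replicate 1, tumour Il1f5+/+ replicate 2 or tumour Il1f9+/+ replicate 2 (adjusted p from 0.0596 to 0.164), and that of Trac without colitis Il1f5+/+ replicate 3, colitis Il1f9+/+ replicate 1, tumour Il1f5+/+ replicate 2 or tumour Il1f9+/+ replicate 1 (adjusted p from 0.0593 to 0.172). Within the Il1f9 line Trac was not called (0.23, adjusted p = 0.629), and Trbc2 was called within neither line (adjusted p = 0.187 and 0.134). Cd247, the zeta chain (0.45, adjusted p = 0.372), and Lck, the kinase that starts the signal (-0.10, adjusted p = 0.771), were not called.

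Among regulatory, helper and inhibitory genes, Ctla4, Il7r, Gata3 and Pdcd1 were called higher in tumours, none of them within both lines. By edgeR's test the calls of Ctla4 (adjusted p = 0.171), Il7r (0.260) and Pdcd1 (0.277) were lost within the Il1f9 line. Within the Il1f5 line that of Gata3 was lost (0.128). Ctla4 was at 7.71 and 4.12 and 10.8 and 5.21 CPM against 1.96, 1.44 and 2.36 and 3.39 and 7.40 CPM, with the second Il1f9+/+ colitis library inside the tumour range (1.13 ± 0.36, adjusted p = 0.0127). Its call was lost without colitis Il1f9+/+ replicate 1, tumour Il1f5+/+ replicate 1 or tumour Il1f9+/+ replicate 1 (adjusted p from 0.061 to 0.0796). Il7r was at 8.72 and 5.84 and 4.01 and 5.06 CPM against 3.12, 1.44 and 2.19 and 2.74 and 4.94 CPM (1.0 ± 0.26, adjusted p = 0.00318), with 1 colitis library inside the tumour range. Gata3 was at 3.52 and 3.21 and 5.01 and 4.60 CPM against 1.38, 2.17 and 1.93 and 2.74 and 2.52 CPM and did not overlap (0.90 ± 0.26, adjusted p = 0.00612). Pdcd1 was at 2.80 and 2.63 and 3.53 and 2.50 CPM against 0.53, 0.90 and 0.97 and 0.91 and 3.43 CPM (1.16 ± 0.41, adjusted p = 0.0222), and its call was lost without colitis Il1f5+/+ replicate 1, colitis Il1f9+/+ replicate 1 or tumour Il1f9+/+ replicate 1 (adjusted p from 0.0505 to 0.0927). Foxp3, by contrast, gave no call (0.47 ± 0.40, adjusted p = 0.316), and its levels differed between the lines: it was at 3.63 and 2.75 CPM in Il1f5+/+ tumours against 0.79, 0.54 and 0.63 CPM in colitis, and at 0.58 and 0.51 CPM in Il1f9+/+ tumours against 0.76 and 2.15 CPM. Within the Il1f5 line its change was 2.07 (adjusted p = 0.00388). Cd5 went in opposite directions in the 2 lines, at 2.28 in the Il1f5 line (adjusted p = 0.00545) and -1.68 in the Il1f9 line (adjusted p = 0.0277), and Cd28 (-2.16, adjusted p = 0.00785) and Tigit (-1.26, adjusted p = 0.0306) were lower in tumours within the Il1f9 line alone. Il2ra (0.01), Icos (0.08), Cd2 (0.27), Cd6 (-0.05) and Lag3, an inhibitory receptor for MHC class II (0.18), were not called.

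The genes called lower in tumours were Tbx21 and genes of the cytotoxic and NK class. By edgeR's test within the Il1f5 line the calls of Cd8a (adjusted p = 0.0575), Nkg7 (0.215) and Il2rb (0.146) were lost. Within the Il1f9 line those of Klrk1 (0.442), Prf1 (0.345) and Il2rb (0.0984) were lost. Cd8a was at 2.68 and 1.09 and 1.85 and 1.23 CPM in tumours against 4.66, 3.13 and 3.20 and 5.88 and 7.94 CPM in colitis, without overlap (-1.53 ± 0.34, adjusted p = 0.00113). Tbx21 was at 0.28 and 0.34 and 0.37 and 0.20 CPM against 1.38, 0.78 and 0.67 and 1.06 and 2.52 CPM (-2.05 ± 0.49, adjusted p = 0.00179). Again the groups were apart. Nkg7 was at 1.62 and 1.26 and 0.53 and 0.66 CPM against 2.59, 1.56 and 3.36 and 3.5 and 5.53 CPM, with 1 tumour just above the lowest colitis library (-1.82 ± 0.48, adjusted p = 0.00414). Klrk1 was at 0.84 and 1.03 and 1.32 and 0.82 CPM against 3.07, 4.15 and 4.04 and 1.82 and 2.04 CPM (-1.39 ± 0.44, adjusted p = 0.0116), and its call was lost without tumour Il1f9+/+ replicate 2 (adjusted p 0.0519). Prf1 was at 0.50 and 0 and 0.37 and 0.72 CPM against 1.11, 1.08 and 0.88 and 0.96 and 1.34 CPM (-1.50 ± 0.53, adjusted p = 0.0215), and lost it without colitis Il1f9+/+ replicate 2, tumour Il1f5+/+ replicate 2 or tumour Il1f9+/+ replicate 1 (adjusted p from 0.0613 to 0.0737). Il2rb, at 7.16 and 5.55 and 5.11 and 4.29 CPM against 8.73, 10.0 and 9.21 and 7.60 and 13.3 CPM, changed by -0.81 ± 0.30 (adjusted p = 0.0267). Its call was lost without colitis Il1f9+/+ replicate 2, tumour Il1f5+/+ replicate 2 or tumour Il1f9+/+ replicate 2 (adjusted p from 0.0892 to 0.124).

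Not every gene of killer cells followed. Klrg1, a receptor of mature effector cells, was higher in tumours, at 1.29 and 1.09 and 0.74 and 0.82 CPM against 0.48, 0.84 and 0.29 and 0.41 and 0.54 CPM (0.98 ± 0.40, adjusted p = 0.0466). That call was the least firm of the 16: it was lost with DESeq2 (adjusted p = 0.0642) and without colitis Il1f5+/+ replicate 1, colitis Il1f5+/+ replicate 3, colitis Il1f9+/+ replicate 1, colitis Il1f9+/+ replicate 2, tumour Il1f5+/+ replicate 1, tumour Il1f5+/+ replicate 2, tumour Il1f9+/+ replicate 1 or tumour Il1f9+/+ replicate 2 (adjusted p from 0.064 to 0.118). Gzma (0.19 ± 0.41, adjusted p = 0.709) and Gzmb (-0.56 ± 0.42, adjusted p = 0.271) were not called, nor were Cd8b1, the other CD8 chain (-1.44 ± 0.65, adjusted p = 0.0677), Klrd1, which encodes CD94 (-0.48 ± 0.32, adjusted p = 0.205), and Ncr1 (-0.82 ± 0.74, adjusted p = 0.349). The ratio of Cd8a to Cd4 counts was 0.56 to 2.42 in the 10 colitis libraries and 0.19 to 0.80 in the 8 tumours, overlapping in part of the range. Groups were separate upward for 3 genes (Tcf7, Gata3 and Zap70), 8.33% of those tested against 19.8% of all genes, and downward for 6, 16.7% against 19.4%.

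Of 43 tested genes of the other T and NK list, 5 were higher and 12 lower in wild-type tumours. Of all genes tested 30.1% were higher and 31.1% lower, so neither share of the list exceeds that of the table as a whole. Maf was lower (-1.56 ± 0.15, adjusted p = 2.48e-07), as was Tox, a factor of exhausted T cells and innate lymphoid cells (-1.14 ± 0.16, adjusted p = 1.18e-05). Gzmc, a granzyme of killer cells, was higher (3.01 ± 0.55, adjusted p = 0.000207). Markers of other cells differed too: 5 of 5 smooth muscle, 7 of 8 B cell, 7 of 10 epithelial, 4 of 5 fibroblast, 4 of 5 endothelial and 4 of 8 macrophage markers were lower in tumours, and 4 of 6 neutrophil and 4 of 5 innate lymphoid and mast cell markers were higher. Ptprc was not called (0.03, adjusted p = 0.861). Their part in the members' differences was not tested.

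**Figure D5:**
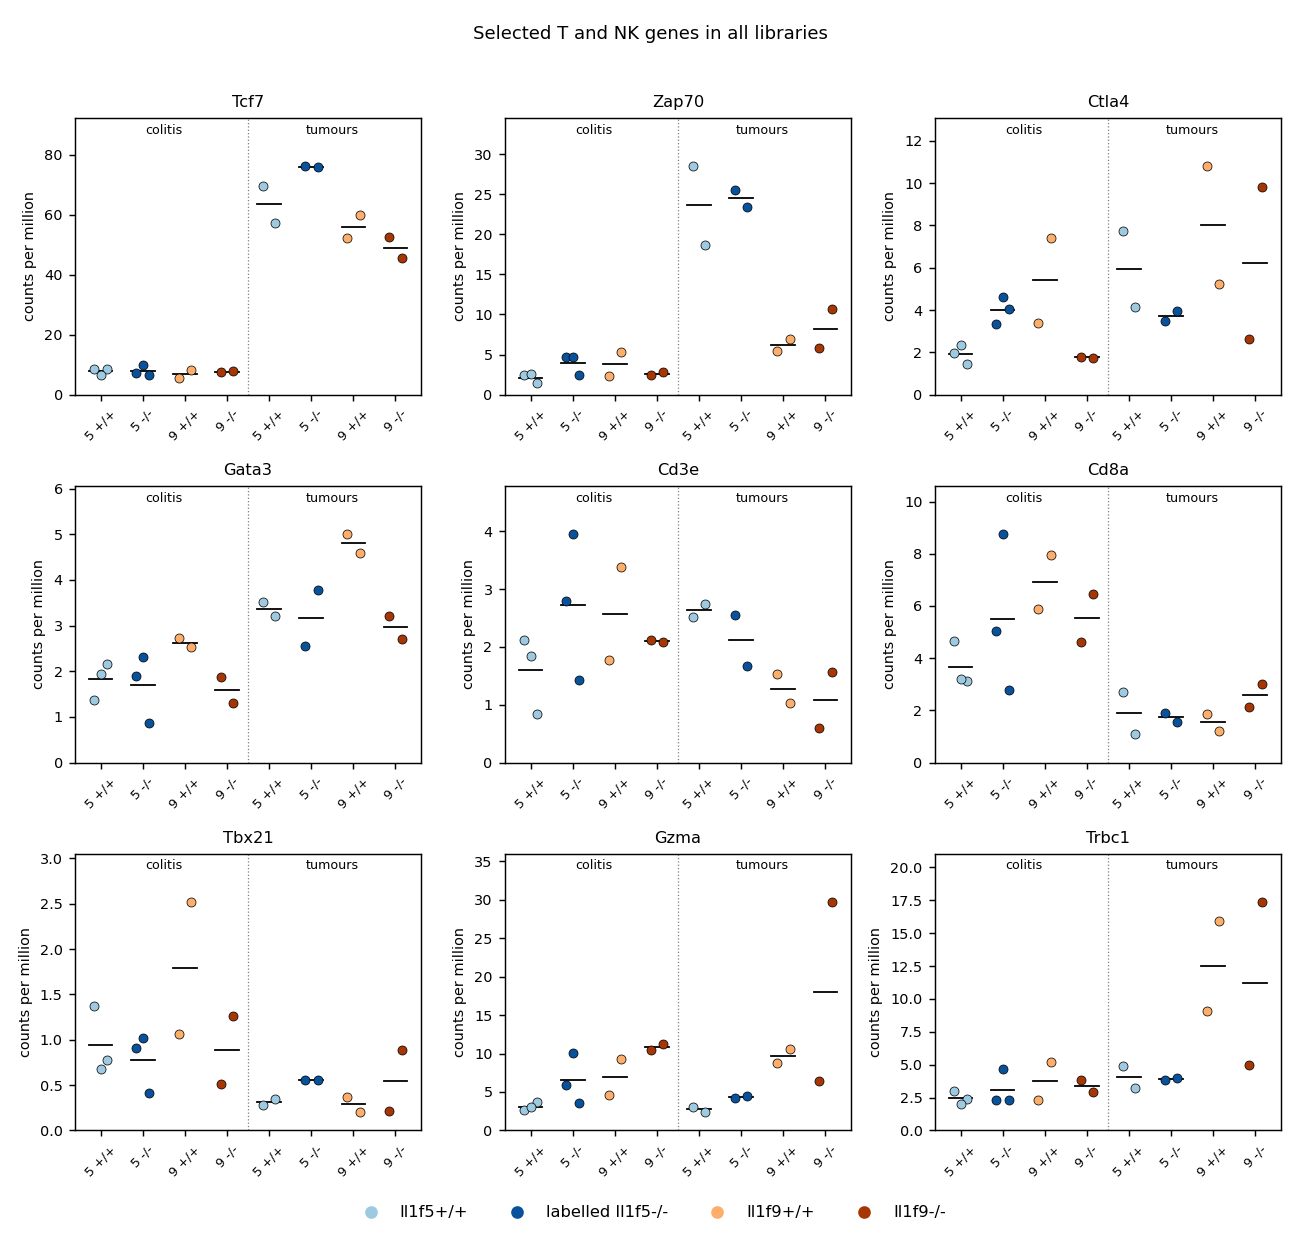
CPM of single genes of the receptor, regulatory, helper and cytotoxic classes in all 18 libraries; points are libraries and the black bar is the group mean. Tcf7 separates the 8 tumours (45.4 to 76.2 CPM) from the 10 colitis libraries (5.42 to 9.89 CPM), and Cd3e does not (0.59 to 2.75 and 0.84 to 3.96 CPM).

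The members not yet given by level overlapped between the tissues. Over the 10 colitis libraries (lowest, median, highest) Lck was at 5.12, 10.1 and 13.5 CPM, and over the 8 tumours at 5.04, 10.0 and 15.6 CPM. Cd3d was at 1.47, 2.69 and 6.05 against 1.45, 2.29 and 7.51 CPM, and Cd3g at 1.68, 3.45 and 6.76 against 2.58, 3.77 and 7.62 CPM. The 2 CD3 chains and Lck thus spanned almost the same range in both tissues. Cd247 was at 0.46, 1.20 and 2.31 against 1.07, 2.19 and 4.90 CPM, Cd2 at 1.01, 2.45 and 4.51 against 1.89, 2.83 and 6.10 CPM, and Cd28 at 0.63, 1.12 and 3.86 against 0.41, 0.88 and 1.93 CPM. Cd8b1 was at 0.13, 1.08 and 2.66 against 0.11, 0.36 and 0.78 CPM, Klrd1 at 1.94, 2.50 and 3.94 against 0.84, 1.74 and 5.90 CPM, and Lag3 at 1.98, 2.89 and 4.80 against 2.14, 3.15 and 3.95 CPM. Cd8b1 alone had every tumour below its colitis median, and all 9 genes overlapped between tissues.

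Ratios within a library set the classes against each other. The ratio of the regulatory sum to the cytotoxic and NK sum was 0.09 to 0.31 in colitis and 0.23 to 0.64 in tumours, highest in Il1f5+/+ tumours (0.56 to 0.64) and lowest in Il1f9-/- colitis (0.09 to 0.11). The ranges of the tissues overlapped, and the difference was not tested. Foxp3 per Cd3e count was 0.21 to 0.64 in colitis and 0.38 to 1.44 in tumours, where the Il1f9+/+ tumours (0.38 to 0.50) lay within the colitis range and the Il1f5+/+ tumours (1.0 to 1.44) above it. The helper sum without Tcf7 per Cd3e count was 4.51 to 13.71 in colitis and 6.18 to 21.64 in tumours, and overlapped between the tissues. With 11 to 70 Cd3e counts behind each ratio to Cd3e, those carry a wide counting error, and all are given as descriptions. The plot of single genes in all libraries gives the values behind them.

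Whether the change from +/+ to the libraries labelled -/- differed between tumour and colitis was tested in 1 fit over all 18 libraries. For the Il1f5 line 0 of 36 genes were called higher, against 10.8% of all genes, and 0 lower, against 7.23% (edgeR; 1 higher and 2 lower at an unadjusted p under 0.05, and 0 and 1 with DESeq2). Il7r was the closest (-1.46 ± 0.50, adjusted p = 0.0523), with a change in the libraries labelled Il1f5-/- of 0.50 in colitis and -0.97 in tumours and no call in either. For the Il1f9 line 0 of 36 were called higher, against 1.65% of all genes, and 0 lower, against 0.82% (edgeR; 11 higher and 0 lower at an unadjusted p under 0.05, and 2 and 0 with DESeq2). Il2ra was the closest there (2.32 ± 0.68, adjusted p = 0.0799): it fell in Il1f9-/- colitis and was not called in the tumours (-0.14). Without tumour Il1f9-/- replicate 1, which leaves the tumour that stood apart as the only knockout, 11 genes were called higher.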

How the data were processed

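The 3 deposited tables hold whole-number read counts per gene and the authors' FPKM values for the 10 colitis and 8 tumour libraries. Per the labels' protocols the libraries were poly(A)-selected and non-directional. The submitters' processing notes name Trim Galore 0.6.4, HISAT2 2.0.5 and featureCounts 2.0.0; no source used here names the genome build, and 53585 of 54532 gene coordinates equal those of GENCODE M21, on GRCm38. Counts were joined by gene identifier. edgeR 4.0.16 (TMM, its expression filter, robust quasi-likelihood test, Benjamini-Hochberg over all genes tested, threshold 0.05) was fitted per tissue for the knockout comparisons and over all 18 libraries for those across tissues, and was tested on simulated data. DESeq2 1.42.0, other scalings and filters, a replicate block and leaving out each library were tried. CPM are counts over the library total. All 37 members are named; values by library are given for members called in a comparison and for 15 members fixed by name, called or not, with up to 5 called genes of smallest p of the other T and NK list per comparison. Some genes that this rule or a marker list holds are not reported here. The members and lists were chosen with earlier results of these data known. Labels give separate mice as replicates. The Y-linked and Xist marker list was used only to check libraries.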

Additional observations from a re-analysis of the deposited data

Results flagged for a closer look

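In colitis the change from +/+ to the libraries labelled -/- differed between the 2 lines by edgeR's test of the difference itself. For 8 members it was higher in the Il1f5 line, and on the log2 scale the difference was 2.85 for Cd5, 2.62 for Pdcd1, 2.48 for Il2ra, 2.47 for Ctla4, 2.26 for Tigit, 2.18 for Icos, 1.97 for Il7r and 1.39 for Trac. Of the 41 other T and NK genes tested 12 were higher in the Il1f5 line, against 12.8% of all genes. Xcl1 alone was lower (-2.07), against 12.0% of all genes. The 5 with the smallest p were all higher, at 2.54 for Trdc, 1.92 for Lcp2, 1.83 for S1pr1, 1.83 for Havcr2 and 1.78 for Maf. The wild-type levels of the lines also differed, and this was not tested.

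Between tumour and colitis, the change of the Il1f5 line differed for Maf (-1.34), Ikzf2, a transcription factor of regulatory and other T cells (-1.19), and Xcl1 (1.80). The call of Xcl1 was lost with DESeq2 (adjusted p = 0.0627), without the filter on low counts (0.0894) and without any 1 of 9 libraries (up to 0.135). That of Ikzf2 was lost without tumour Il1f5+/+ replicate 2 or tumour replicate 1 labelled Il1f5-/- (up to 0.142), and that of Maf without the latter (0.0504). In the Il1f9 line it differed for Havcr2 (1.65), Lcp2 (1.59) and Maf (1.35), and that of Lcp2 was lost with DESeq2's size factors (adjusted p = 0.0503). Leaving out any 1 of 5 libraries for Lcp2, and of 6 for Maf and for Havcr2, also ended the call (adjusted p up to 0.178, 0.134 and 0.170). None of the 37 members passed these tests between tissues.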

How the results depend on the processing

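Groups hold 2 or 3 animals, and counts of these genes are low. Of the called genes' values under other settings, 270 kept direction and call and 38 lost the call; with a library left out these numbers were 357 and 120. The causes were not tested. Among values of genes not called, 31 gained a call under other settings, and further calls were gained with a library left out. Of these uncalled genes' values 1 reversed: Cd5 in wild-type tumours against colitis was -1.68 within the Il1f9 line.

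Members called in Il1f5 colitis (4 higher, 2 lower) numbered 2 higher and 1 lower in a fit of all 18 libraries, and 1 lower with DESeq2 or with the 2 groups alone. In Il1f9 colitis (5 lower) they were 3 with the 2 groups alone and 2 in the fit of all 18. Higher members in Il1f9 tumours (0) were 2 without the filter on low counts. In wild-type tumours against colitis (10 higher, 6 lower) 3 were higher within the Il1f9 line and 3 lower within the Il1f5 line, alternatives chosen after seeing the data. For the difference between tissues, lower members of the Il1f5 line (0) were 1 with DESeq2's size factors, 1 with DESeq2 and 3 without the filter, and higher members of the Il1f9 line (0) were 2 with DESeq2 and 9 without the filter.

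Over all genes, the fit of all 18 libraries called 2815 in Il1f5 colitis (4516), 2279 in Il1f9 colitis (3581), 2909 in Il1f5 tumours (5) and 117 in Il1f9 tumours (3). An absolute log2 change of at least 1 left 1371 and 1155 in colitis. DESeq2 called 1230 in Il1f5 tumours, 158 in Il1f9 tumours, 557 for the difference between lines in tumours (14) and 1308 for the Il1f9 difference between tissues (482). Without the filter these were 1943, 791, 1362 and 1823. With the 2 groups alone, tumours gave 1026 and 0, and DESeq2's size factors gave 25 for the tumour line difference.

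Leaving out 1 library at a time gave 1 to 4 higher and 0 to 3 lower members in Il1f5 colitis (1964 to 5586 genes), 1 to 8 lower in Il1f9 colitis (1393 to 3396 genes), 2 to 7 genes in Il1f5 tumours, and 0 to 1 higher members in Il1f9 tumours (4 to 97 genes). It gave 2 to 13 higher members for the colitis line difference (1961 to 5844 genes), 2 to 319 genes for the tumour one, and 5 to 10 higher and 4 to 7 lower members in wild-type tumours against colitis. For the differences between tissues it gave 0 to 1 member in each direction in the Il1f5 line (561 to 3969 genes) and 0 to 11 higher in the Il1f9 line (49 to 1107 genes). Where 1 library is left in a group, it is assumed to vary like the other groups.

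Whether replicate numbers pair the animals is not known. Deviations of same-numbered libraries correlated at -0.127 to -0.0029. This cannot decide it, since in groups of 2 libraries both replicates give the same value by construction. With the replicate block, members were 4 higher and 2 lower in Il1f5 colitis and 3 lower in Il1f9 colitis, and 3296, 2655, 9 and 2 genes were called in Il1f5 colitis, Il1f9 colitis, Il1f5 tumours and Il1f9 tumours. Crossing the numbers of the Il1f9 tumours, an alternative chosen after seeing the data, gave 3 genes and 0 members.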
